A study of Mus musculus with 4 samples.

Results

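Neutrophils, the short-lived granulocytes that leave the blood for infected or injured tissue, were picked out of single-cell RNA libraries of mouse liver leukocytes by the transcripts they carried. A barcode was kept with 500 or more UMIs (unique molecular identifiers, each counting 1 captured RNA molecule), 200 or more genes and no more than 20% of its UMIs from mitochondrial genes. The neutrophils were then chosen by their UMI counts: a kept barcode was one when at least 3 of 7 genes (S100a8, S100a9, Retnlg, Csf3r, Cxcr2, Mmp9 and G0s2) had a UMI, S100a8 and S100a9 together had at least 5, fewer than 3 of the 6 Kupffer cell genes Clec4f, Timd4, Vsig4, Cd5l, Marco and Folr2 had one, and Cd79a, Cd3e and Siglech had none. This gave 115 neutrophils among 15020 kept barcodes, of 15383 in all.

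The libraries came from wild-type C57BL/6 mice. In the exercise group, mice ran on a motorized treadmill at 12.5 m/min for 60 min a day, 5 days a week, for 4 weeks, and in the sedentary group the treadmill stood still on the same schedule. Each group had 2 libraries, and the labels do not say whether these came from separate animals, so p-values measure only the spread between libraries. Serum alanine aminotransferase at harvest, a blood measure of liver injury, stood at 26 U/L in exercise replicate 1 and 59 U/L in exercise replicate 2. It stood at 33 U/L in sedentary replicate 1 and 56 U/L in sedentary replicate 2. Livers were perfused with collagenase, non-parenchymal cells were separated on Percoll, and cells with CD45, the surface protein of all leukocytes, were taken with magnetic beads before 10x Genomics 3′ libraries were made.

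Neutrophils mature in the bone marrow, where each class of granule protein is transcribed at its own stage, and they enter the blood with granules filled and with little RNA. S100A8 and S100A9 form calprotectin, a calcium- and zinc-binding alarmin that is the main protein of their cytosol. The receptors CSF3R and CXCR2 respond to granulocyte colony-stimulating factor and to CXCL chemokines, and CXCR2 draws the cells into injured liver.

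The stretches before the transcription start of S100a9, Retnlg and Slpi, abundant neutrophil transcripts picked because the stretch held the letters searched for, are shown here. C/EBP factors, which drive granulocyte maturation, bind letters of this kind and Cebpb was itself abundant in these cells. The 250 bases before each start are from RefSeq on GRCm38.p6, written 5′ to 3′ along the gene's strand. Capitals mark a match to TTGCNNAA on either strand, so that the reverse complement TTNNGCAA also counts. The windows are chr3:90695722-90695971 on the minus strand for S100a9, chr16:48872358-48872607 on the plus strand for Retnlg and chr2:164356508-164356757 on the minus strand for Slpi.
S100a9: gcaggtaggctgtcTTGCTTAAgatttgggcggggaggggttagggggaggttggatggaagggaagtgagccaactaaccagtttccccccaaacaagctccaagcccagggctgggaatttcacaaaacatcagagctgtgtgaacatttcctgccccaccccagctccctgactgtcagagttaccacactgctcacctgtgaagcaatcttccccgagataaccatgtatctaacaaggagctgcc
Retnlg: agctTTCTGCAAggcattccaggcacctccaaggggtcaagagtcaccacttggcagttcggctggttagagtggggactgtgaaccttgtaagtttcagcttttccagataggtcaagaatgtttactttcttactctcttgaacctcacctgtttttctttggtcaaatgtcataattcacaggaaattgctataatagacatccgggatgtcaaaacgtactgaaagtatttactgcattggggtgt
Slpi: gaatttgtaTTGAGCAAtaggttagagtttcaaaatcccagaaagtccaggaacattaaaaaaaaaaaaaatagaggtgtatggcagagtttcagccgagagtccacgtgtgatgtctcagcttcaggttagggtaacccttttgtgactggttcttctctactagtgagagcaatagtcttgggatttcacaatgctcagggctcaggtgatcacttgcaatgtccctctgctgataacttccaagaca
The match began 236 bases before the start of S100a9, 246 before that of Retnlg and 241 before that of Slpi. These letters stood in 9.56% of 32851 windows of the same length. They stood in 2 of the 6 selection genes that had a window, and in 6 of 18 windows among the 20 genes with the largest ratio of neutrophils to other barcodes (Clec4e, Lcn2, Mmp8, Ptgs2, Slc7a11 and Slpi). The 20 most abundant genes outside the selection were ranked with mt-, Rpl and Rps genes left out. Among these 20 the letters stood before 3 of the 17 with a window (Fth1, Pfn1 and Slpi). The window of S100a8, the most abundant, did not hold them, which says nothing of the factor. A match is a description of these letters and no evidence of binding.

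Neutrophils were a small part of every library, and their share was lower in both exercise libraries than in both sedentary libraries. In exercise replicate 1, 6 of 2917 kept barcodes were neutrophils, a share of 0.206% (exact binomial 95% interval 0.0755 to 0.447). In exercise replicate 2 they were 24 of 4221, a share of 0.569% (0.365 to 0.845). Sedentary replicate 1 held 40 of 4026, a share of 0.994% (0.711 to 1.35), and sedentary replicate 2 held 45 of 3856, a share of 1.17% (0.852 to 1.56). These intervals cover counting error only. The mean share was 0.387% ± 0.257 in exercise libraries and 1.08% ± 0.123 in sedentary libraries (SD, n = 2 each), a log2 ratio of -1.48. An exact two-sided permutation test over the 4 libraries gave p = 0.333, the smallest p that 2 against 2 libraries allow. The log2 ratio was -0.93 without exercise replicate 1 and -2.39 without exercise replicate 2.

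The share depended on where the barcodes of a library began. Neutrophils had a median of 1147 UMIs and 503 genes, against 2535 UMIs and 1131 genes in the other kept barcodes, and 94 of the 115 had under 1500 UMIs. The lowest total of a kept barcode was 1057 and 1126 UMIs in exercise replicates 1 and 2, and 931 and 1008 UMIs in sedentary replicates 1 and 2. The median neutrophil lay just above those limits, at 1098 and 1282.5 UMIs in exercise replicates 1 and 2 and at 1094 and 1111 UMIs in sedentary replicates 1 and 2. When only barcodes of at least 1126 UMIs, the highest of the 4 lowest totals, were counted, 2 of 2853 (0.0701%) and 24 of 4221 (0.569%) were neutrophils in exercise replicates 1 and 2. The same limit left 17 of 3610 (0.471%) and 21 of 3693 (0.569%) in sedentary replicates 1 and 2. The groups then overlapped, and the exact permutation test gave p = 0.667 at a log2 ratio of -0.70. Exercise replicate 1 was then the only library apart, with the other 3 between 0.471% and 0.569%. With at least 1000 UMIs and 500 genes the groups overlapped too, at a mean of 0.271% in exercise and 0.485% in sedentary libraries (log2 ratio -0.84, exact permutation p = 0.667). Next, the lowest 10% of barcodes by UMIs was left out of each library. This limit was 1402.6 and 1473 UMIs in exercise replicates 1 and 2, against 1120.5 and 1252 UMIs in sedentary replicates 1 and 2. It was thus not the same limit in every library. In exercise replicates 1 and 2, 2 of 2625 (0.0762%) and 7 of 3797 (0.184%) were then neutrophils. Sedentary replicates 1 and 2 held 18 of 3623 (0.497%) and 8 of 3468 (0.231%). The shares of the groups did not overlap, and the log2 ratio was -1.48 (exact permutation p = 0.333). The binomial intervals of exercise replicate 2 (0.0742 to 0.379) and sedentary replicate 2 (0.0996 to 0.454) did overlap. Barcodes below the deposited limits were not analysed here, so neutrophils with still less RNA were not counted. The bead selection and the Percoll step can change such a share too, and their part was not tested.

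**Figure D1:**
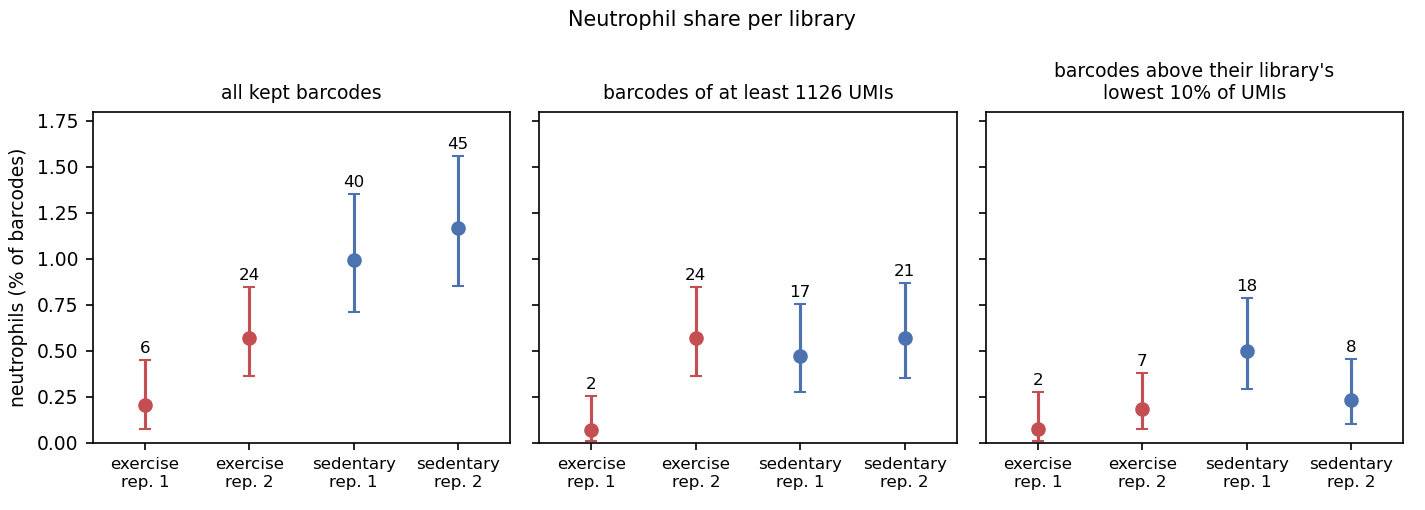
Share of barcodes called neutrophils (percent, y axis) in the 2 exercise and 2 sedentary libraries, with exact binomial 95% intervals and the number of neutrophils above each point, over all kept barcodes, over barcodes of at least 1126 UMIs, and over barcodes above the lowest 10% of their library by UMIs. With all kept barcodes the exercise libraries (0.206% and 0.569%) lie below the sedentary ones (0.994% and 1.17%), and at the common limit exercise replicate 2 and sedentary replicate 2 are both at 0.569%.

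**Figure D2:**
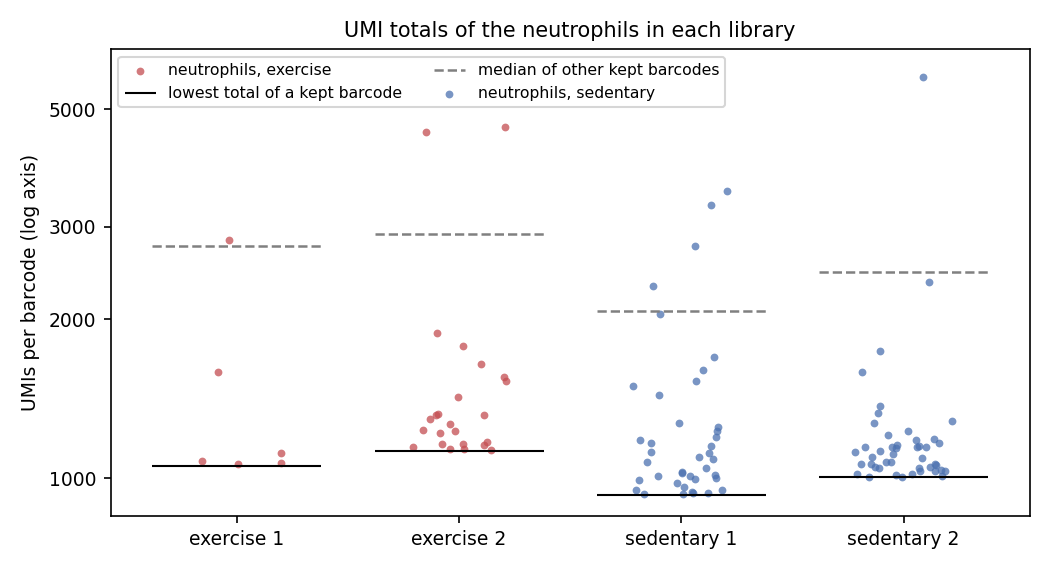
UMIs per barcode (y axis, log scale) of each of the 115 neutrophils, by library, with the lowest total of any kept barcode (solid line) and the median of the other kept barcodes (dashed line). Most neutrophils lie just above the solid line, 94 of them under 1500 UMIs.

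Alarmin transcripts outside neutrophils followed the share in B cells and Kupffer cells. In B cells, which do not make these alarmins, thinned to 900 UMIs each, 1.53% and 3.90% had an S100a8 or S100a9 UMI in exercise replicates 1 and 2, against 6.15% and 8.94% in sedentary replicates 1 and 2. In Kupffer cells, the resident liver macrophages, the same share was 0.873% and 4.48% in exercise replicates 1 and 2, against 7.93% and 10.5% in sedentary replicates 1 and 2. In both, the order of the 4 libraries was that of the neutrophil shares. In the 180 classical monocytes it was not, at 0% and 6.15% in exercise replicates 1 and 2, against 1.89% and 2.27% in sedentary replicates 1 and 2, from 0 to 4 cells a library. Free RNA and doublets were not told apart: 0 and 4 B cells of exercise replicates 1 and 2, against 0 and 2 of sedentary replicates 1 and 2, had 5 or more such UMIs at that depth. So did 1 and 3 Kupffer cells of exercise replicates 1 and 2, against 2 and 14 of sedentary replicates 1 and 2. Every neutrophil had an alarmin UMI at that depth, with 125 to 150 UMIs per cell on average in each library. The selection asked for at least 5 such UMIs before thinning, so these neutrophil values are a description. B cells and Kupffer cells under the selection limit averaged between 0.00874 and 0.105 such UMIs per cell.

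Few barcodes lay near the limits on neutrophil genes, while the limits on genes of other cells removed more. S100a8 and S100a9 together gave between 7 and 884 UMIs per neutrophil, with a median of 198. The 2 neutrophils just inside the limit had 7 and 8 UMIs, 1 in each sedentary library, and the 4 barcodes just outside it, with 3 or 4 UMIs, were all in sedentary libraries. By number of selection genes, 5 neutrophils had 3, 22 had 4, 42 had 5, 33 had 6 and 13 had all 7, and 2 barcodes with 2 genes fell just outside. Of 165 barcodes that met the neutrophil limits, 31 were left out for Kupffer cell genes, 26 for a UMI of Cd79a, Cd3e or Siglech and 7 of these for both. Keeping all 165 gave shares of 0.552% ± 0.392 in exercise and 1.56% ± 0.586 in sedentary libraries (SD, n = 2 each). A score against simulated doublets marked 2 of the 115 among 460 kept barcodes marked in all. The libraries shared 125 barcode sequences, and 3 neutrophils had such a barcode, none of them matched to a neutrophil in the other library.

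The 7 selection genes chose these cells, so their levels are a description. Levels are given per 1000000 of the summed neutrophil UMIs of a library (CPM). The sums were 8748 and 38393 UMIs in exercise replicates 1 and 2, and 53288 and 57087 in sedentary replicates 1 and 2, so 1 UMI was worth more in exercise replicate 1 than elsewhere. S100a8 (chr3:90668978-90670035, plus strand, GENCODE on GRCm38) had 102766 and 80536 CPM in exercise replicates 1 and 2, against 88538 and 84678 CPM in sedentary replicates 1 and 2. S100a9 (chr3:90692632-90695721, minus strand), its neighbour and partner, averaged 58823 ± 5658 CPM (SD, n = 4). The pair gave a median of 18.1% of all UMIs of a neutrophil, with a range of 0.302% to 37.9%. Retnlg, a resistin-like secreted protein of mouse granulocytes, averaged 9399 ± 1932 CPM. Csf3r averaged 1059 ± 111 CPM, G0s2, an inhibitor of triglyceride breakdown, 839 ± 316 CPM, Mmp9, the gelatinase of the tertiary granules, 649 ± 162 CPM, and Cxcr2 565 ± 216 CPM. S100a8 was at 23.8 CPM in classical monocytes, 102 CPM in Kupffer cells and 147 CPM in B cells, as means over the 4 libraries. These means do not rank the cell types. S100a8 and S100a9 together gave 1.63 UMIs per B cell in exercise replicate 2, against 0.0245 in exercise replicate 1. They gave 0.152 and 0.257 UMIs per B cell in sedentary replicates 1 and 2. By the selection, 2 barcodes with 3 or more of 6 monocyte genes were counted as neutrophils, not as classical monocytes.

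Known neutrophil genes outside the selection were also high in these cells. Among genes with a UMI in at least 20% of the neutrophils, the 20 with the largest ratios to the other kept barcodes included Chil1, a chitinase-like glycoprotein (log2 ratio 9.75), Il1f9, which encodes the cytokine IL-36γ (9.41), and Stfa2l1, a stefin protease inhibitor (9.41). Chil1 had 1029 and 78.1 CPM in exercise replicates 1 and 2, against 225 and 210 CPM in sedentary replicates 1 and 2, so its mean leaned on 9 UMIs of exercise replicate 1. Stfa2l1 belongs to a family of near-identical copies, so its count is uncertain. Others were Lcn2, the iron-siderophore binding protein lipocalin 2 (8.72), and Asprv1, an aspartic protease (8.24). Mmp8, the neutrophil collagenase, stood at 8.10, and Trem1, an activating receptor, at 8.02. Of the 15 Mmp8 UMIs in exercise replicate 1, 13 were in 1 cell, so its mean leaned on that cell. Lcn2 had 343 and 651 CPM in exercise replicates 1 and 2, against 807 and 666 CPM in sedentary replicates 1 and 2. It was at 0.956 CPM in Kupffer cells and 3.43 CPM in classical monocytes. Il1r2, the decoy receptor for interleukin-1, averaged 336 CPM in neutrophils and was at 0 in classical monocytes. Hdc, the enzyme that makes histamine, averaged 1138 ± 410 CPM (SD, n = 4) and had a UMI in 75 of the 115 neutrophils. Ly6g, the surface protein most used to sort mouse neutrophils, had a UMI in 6 neutrophils only. It was at 343 CPM in exercise replicate 1, from 3 UMIs of 1 cell, and at 26.0 CPM in exercise replicate 2, against 75.1 and 17.5 CPM in sedentary replicates 1 and 2.

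**Figure D3:**
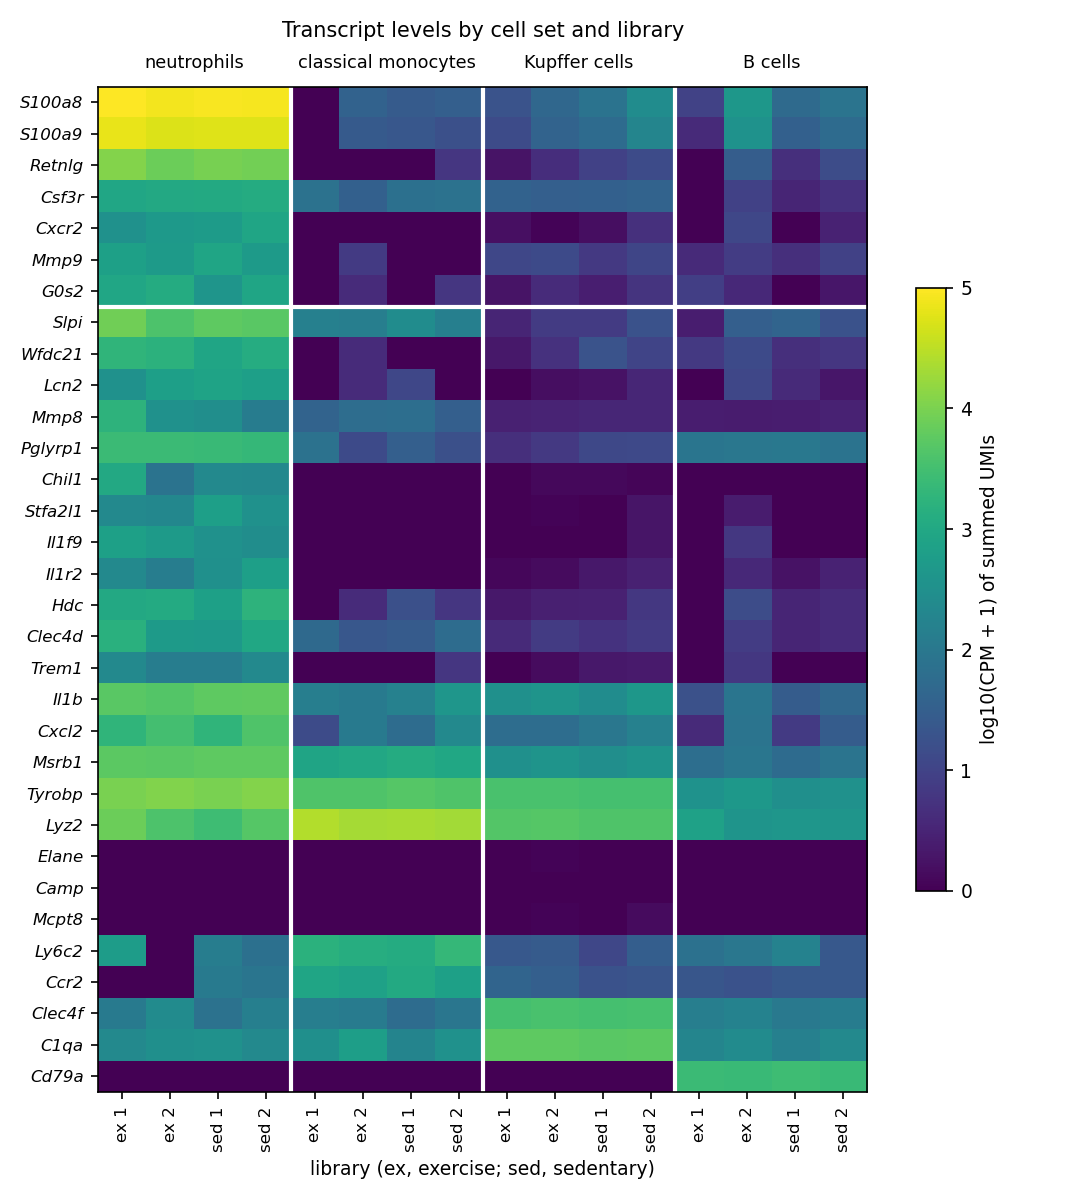
Level of chosen transcripts (colour, log10 of CPM + 1 of summed UMIs) in neutrophils, classical monocytes, Kupffer cells and B cells. Each cell set is shown in 2 exercise (ex) and 2 sedentary (sed) libraries. The upper block holds the 7 genes that selected the neutrophils. Elane, Camp and Mcpt8 are at 0 UMIs in neutrophils, while Slpi, Wfdc21, Il1b and Msrb1 stand well above the other cell sets.

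Transcripts of several granule and secreted antimicrobial proteins were abundant. Those of azurophil granules, and part of those of specific granules, were at or near 0. Slpi, a secreted inhibitor of neutrophil elastase, had 8116 and 4037 CPM in exercise replicates 1 and 2, against 5761 and 5220 CPM in sedentary replicates 1 and 2, with a UMI in 102 of the 115 neutrophils. Pglyrp1, a peptidoglycan-binding protein of the granules, averaged 2407 ± 207 CPM, Hp, haptoglobin, 1851 ± 490 CPM, and Wfdc21, a small secreted protein of the Slpi type, 1405 ± 427 CPM (SD, n = 4 each). Elane, Mpo and Ctsg, the enzymes of the azurophil granules made by promyelocytes, and Ms4a3, a gene of early granulocyte precursors, had no UMI in 115 neutrophils. This allows a share of up to 2.61% of neutrophils with a UMI. Prtn3, another azurophil granule protease, had 1 UMI. Ltf and Camp, specific granule genes of myelocytes, also had none, and Ngp and Chil3, from the same list, had 3 and 2 UMIs. Lcn2 and Mmp8, also from that list, went the other way. They averaged 617 and 619 CPM, with a UMI in 45.2% and 23.5% of neutrophils. Of 12 cell cycle genes, 8 were at 0, among them Mki67, Top2a and Cdk1. Of the 4 that were read, Hmgb2 averaged 843 CPM, and Pcna, Stmn1 and Tubb5 had 8, 4 and 18 UMIs. The 8 basophil and mast cell genes, Mcpt8 and Cpa3 among them, were at 0 in every library.

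Receptors for arrival and for ageing were read in part of the cells. C5ar1, the receptor for the complement fragment C5a, averaged 953 ± 322 CPM (SD, n = 4) in neutrophils and 43.2 CPM in the other barcodes. Selplg, the ligand that lets leukocytes roll on selectins, averaged 996 ± 98.4 CPM, and Ccr1, a receptor for CCL3, 527 ± 165 CPM. Cxcr2 had a UMI in 70 of the 115 neutrophils, and Cxcr4, the bone marrow homing receptor that rises as neutrophils age, in 47. At 900 UMIs, Cxcr2, which helped to select these cells, was read in 51.3% of neutrophils and in 0.152% of B cells. Cxcr4, which did not, was read in 33.0% of neutrophils and in 11.4% of B cells, which also express it.

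Neutrophils carried cytokine transcripts in every library. Il1b, the inflammatory cytokine interleukin-1β, had 5258 and 4506 CPM in exercise replicates 1 and 2, against 5761 and 5956 CPM in sedentary replicates 1 and 2. It was read in 109 of the 115, and at 900 UMIs in 91.3% of neutrophils, against 2.43% of B cells. Cxcl2, a CXCR2 ligand that recruits further neutrophils, averaged 2756 ± 1120 CPM (SD, n = 4) and was read in 62. Ccl6 averaged 3951 ± 1509 CPM and was read in 103. Il1b was at 359 CPM in Kupffer cells and 208 CPM in classical monocytes.

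Of the phagocyte oxidase, which makes superoxide, the membrane subunit gene Cyba averaged 1868 ± 460 CPM in neutrophils and its partner Cybb 143 ± 25.0 CPM (SD, n = 4 each), against 1238 CPM and 531 CPM in the other barcodes. The cytosolic subunits Ncf4 and Ncf1 averaged 376 and 306 CPM. Among signalling adaptors, Tyrobp averaged 10813 ± 1048 CPM and Fcer1g 3848 CPM. Among transcription factors, Cebpb averaged 2500 ± 939 CPM, Junb 2435 ± 479 CPM and Spi1, which encodes PU.1, 1353 ± 402 CPM, while Cebpe, a factor of the late marrow stages, was at 31.2 CPM with a UMI in 6 neutrophils. Mitochondrial transcripts were low, with a median of 0.572% and 1.21% of UMIs in neutrophils of exercise replicates 1 and 2 and 2.07% and 1.18% in those of sedentary replicates 1 and 2. In the other kept barcodes the medians were 4.28% and 4.30% in exercise, and 4.69% and 4.12% in sedentary libraries.

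Transcripts of other cell types were also read in neutrophils. Of 9 Kupffer cell markers, 7 had a UMI in neutrophils, and their summed level was 686 and 1485 CPM in exercise replicates 1 and 2, against 1182 and 1559 CPM in sedentary replicates 1 and 2. Timd4 and Marco were at 0, and the sum in the other barcodes was between 11836 and 16730 CPM. Among the 6 Kupffer cell genes of the selection, 59 neutrophils had a UMI of none, 36 of 1 gene and 20 of 2. All 9 monocyte markers had a UMI, with sums of 686 and 313 CPM in exercise replicates 1 and 2, against 676 and 473 CPM in sedentary replicates 1 and 2, where classical monocytes had between 4108 and 4691 CPM. By single cells, 99 neutrophils had a UMI of none of 6 monocyte genes, and 2 had 3 or more, 1 in each sedentary library. Of 10 hepatocyte markers 8 had a UMI, and their sum was 0 and 234 CPM in exercise replicates 1 and 2, against 394 and 158 CPM in sedentary replicates 1 and 2. Fgb and Ahsg were at 0. Of 6 erythroid markers 1 was read, as a single UMI of Hbb-bs in sedentary replicate 1. Of 7 endothelial markers 6 were read, with Oit3 at 0, and their sum was 0 and 130 CPM in exercise replicates 1 and 2, against 206 and 613 CPM in sedentary replicates 1 and 2. In the other barcodes that sum was between 859 and 989 CPM. Of 9 T and NK cell markers 6 were read, at 229 and 104 CPM in exercise replicates 1 and 2, against 394 and 175 CPM in sedentary replicates 1 and 2. Genes outside these lists were not in the sums. Among them, Cd74 averaged 2470 CPM in neutrophils (log2 ratio of exercise over sedentary 1.05) and Apoe 1800 CPM (-0.32). Which cells these 2 came from was not tested. The part of all these transcripts in the comparison of the groups was not tested beyond the alternatives given with it.

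For the exercise comparison within neutrophils, UMIs were summed per library and 649 genes passed the filter on low counts. The quasi-likelihood test of edgeR, with Benjamini-Hochberg adjustment, called 0 of the 649 (0%) at an adjusted p of 0.05. At an unadjusted p of 0.05 it passed 14 genes (2.16%), with 8 higher (1.23%) and 6 lower (0.924%) in exercise, and the smallest adjusted p was 0.998. The Wald test of DESeq2 called 1 gene, Saa3, at an adjusted p of 0.0293. Saa3, an acute-phase serum amyloid, had 29 and 7 UMIs in exercise replicates 1 and 2, each in a single cell, and 0 UMIs in both sedentary libraries. Without sedentary replicate 2 the edgeR test called 7 genes, and without sedentary replicate 1 it called 1, all higher in exercise. The 2 exercise libraries did not overlap the 2 sedentary ones for 198 genes (30.5%), with 97 higher (14.9%) and 101 lower (15.6%) in exercise.

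The genes named next were those with the smallest unadjusted p and groups that did not overlap. All had an adjusted p of 0.998 in edgeR's test, so each is given as values, not as a change. Irg1 (chr14:103046977-103056573, plus strand), the itaconate-making enzyme also named Acod1, had 8 and 21 UMIs in exercise replicates 1 and 2, that is 914 and 547 CPM, against 2 and 8 UMIs, that is 37.5 and 140 CPM, in sedentary replicates 1 and 2 (log2 ratio 2.87, SE 0.70). These came from 1 of 6 and 5 of 24 neutrophils in the exercise libraries, and from 2 of 40 and 4 of 45 in the sedentary libraries. In exercise replicate 2, 15 of the 21 UMIs were in 1 cell. Rsrp1 had 1029 and 469 CPM in exercise replicates 1 and 2, against 169 and 140 CPM in sedentary replicates 1 and 2 (log2 ratio 2.08, SE 0.57). It was read in all 6 neutrophils of exercise replicate 1, so its level there did not rest on 1 cell. Ifit1, an interferon-induced RNA-binding protein, had 1257 and 313 CPM in exercise replicates 1 and 2, against 18.8 and 105 CPM in sedentary replicates 1 and 2 (log2 ratio 3.25, SE 1.04), and came from 1 neutrophil in each exercise library. Nrros, a regulator of reactive oxygen species, had a log2 ratio of 1.73 (SE 0.54).

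Lower in exercise by the same rule were Hist1h1c, Syf2, Adgre5, Tspan13 and Max, with log2 ratios between -2.77 and -1.34. Hist1h1c, a linker histone, had 0 and 52.1 CPM in exercise replicates 1 and 2, from 0 and 2 UMIs, against 300.3 and 298 CPM in sedentary replicates 1 and 2, from 16 and 17 UMIs. Syf2, a splicing factor, had 114 and 52.1 CPM in exercise replicates 1 and 2, from 1 and 2 UMIs, against 281 and 385 CPM in sedentary replicates 1 and 2, from 15 and 22 UMIs. Adgre5, the adhesion receptor CD97, had 114 and 78.1 CPM in exercise replicates 1 and 2, against 281 and 333 CPM in sedentary replicates 1 and 2. The exercise values of all 5 rested on at most 6 UMIs per library.

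**Figure D4:**
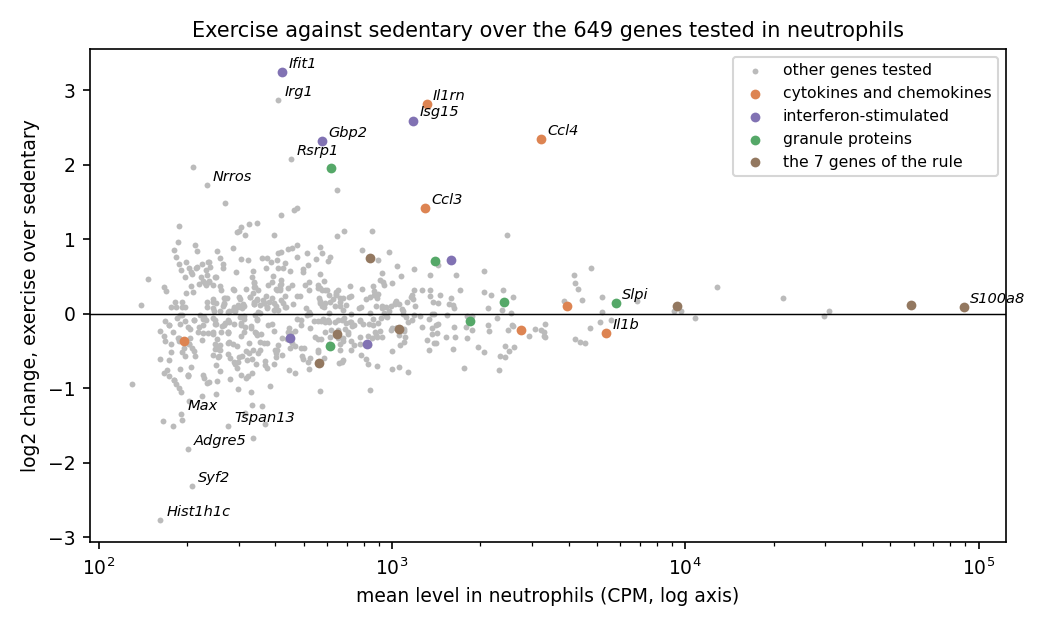
Log2 ratio of exercise over sedentary (y axis) against the mean level in neutrophils (x axis, CPM, log scale) for the 649 genes tested, coloured by gene list. The alarmins and Slpi lie close to 0, the named genes with large ratios lie mostly below 1000 CPM, and 0 of the 649 genes were called by edgeR.

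The 20 most abundant genes outside the selection were taken with mt-, Rpl and Rps genes left out. Among these 20, log2 ratios of exercise over sedentary ran from -0.34 (Wfdc17) to 0.62 (Lyz2). The log2 ratio of exercise over sedentary was 0.09 for S100a8 (SE 0.19), 0.12 for S100a9 (SE 0.18), 0.14 for Slpi (SE 0.43), 0.16 for Pglyrp1 (SE 0.34) and -0.26 for Il1b (SE 0.29). For the 6 specific and gelatinase granule genes tested the median was 0.15, with 4 positive and 2 negative, against -0.03 over all 649 genes, of which 308 were positive. That median turned to -0.14 with DESeq2, to -0.29 without the filter on low counts and to -0.0089 without exercise replicate 1. For 7 glycolysis genes it was 0.34, with 6 positive and 1 negative, and it was 0.64 without sedentary replicate 1, 0.21 without sedentary replicate 2, 0.13 with DESeq2 and 0.037 without the filter on low counts. For 10 immediate early and heat shock genes it was -0.13, and 0.13 without exercise replicate 2. For 9 mitochondrially encoded transcripts it was -0.38, with 8 negative, and 0.15 without exercise replicate 1. None of these lists held a called gene.

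Some interferon-stimulated genes and cytokines had large ratios that rested on few cells. For the 6 interferon-stimulated genes tested the median log2 ratio was 1.52. Ifit1, Isg15, Gbp2 and Ifitm3 were positive, at 3.25, 2.59, 2.32 and 0.73, and Slfn1 and Ifi27l2a negative, at -0.32 and -0.40. The median was 0.38 without exercise replicate 1, 1.03 without sedentary replicate 1 and 2.88 without sedentary replicate 2. Isg15, a ubiquitin-like protein induced by interferon, had 3658 and 443 CPM in exercise replicates 1 and 2, against 56.3 and 561 CPM in sedentary replicates 1 and 2, and the groups overlapped. Summed over 8 such genes (Ifit1, Ifit2, Ifit3, Isg15, Rsad2, Usp18, Isg20 and Gbp2, a set chosen after values were seen), exercise replicate 1 had 105 UMIs, of which 104 (99.0%) came from 1 of its 6 neutrophils. In exercise replicate 2, 42 of 54 came from 1 of 24. Sedentary replicate 1 had 10, with at most 2 in a cell, and sedentary replicate 2 had 68, of which 30 came from 1 of 45. Over all libraries 4 of the 115 neutrophils had a UMI of at least 4 of the 8 genes, 1 in each exercise library, 0 in sedentary replicate 1 and 2 in sedentary replicate 2.

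The same cell of exercise replicate 1, with 1588 UMIs in all, held 130 of that library's 164 UMIs of Ccl3, Ccl4 and Il1rn, the interleukin-1 receptor antagonist. Ccl4 had 10745 and 78.1 CPM in exercise replicates 1 and 2, against 694 and 1384 CPM in sedentary replicates 1 and 2, so the sedentary libraries lay between the exercise ones. It was read in 18 of the 115 neutrophils. For the 7 cytokine and chemokine genes tested the median log2 ratio was 0.10, and -0.72 without exercise replicate 1. Ccl3 or Ccl4 was read in 3 of 6 and 6 of 24 neutrophils in exercise replicates 1 and 2, and in 8 of 40 and 18 of 45 in sedentary replicates 1 and 2.

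**Figure D5:**
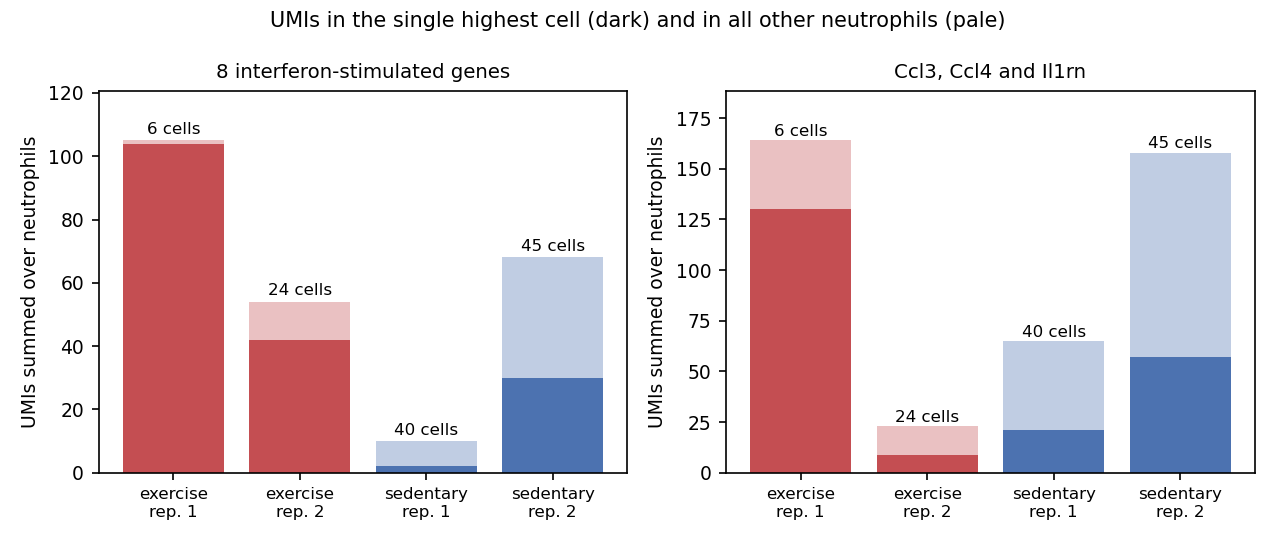
UMIs summed over the neutrophils of each library (y axis) for 8 interferon-stimulated genes (left) and for Ccl3, Ccl4 and Il1rn (right), with the share of the single highest cell in dark and of all other neutrophils in pale. In exercise replicate 1, a single cell gives 104 of 105 and 130 of 164 UMIs.

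The exercise difference in neutrophils was also set against that in the other kept barcodes of the same libraries, with the library as a block. This interaction called 0 of 649 genes (0%) in edgeR's quasi-likelihood test, and 28 (4.31%) passed an unadjusted p of 0.05, 20 of them positive (3.08%) and 8 negative (1.23%). Without exercise replicate 2 it called 4 genes, all positive. For Rsrp1 the other barcodes had 568 and 419 CPM in exercise replicates 1 and 2, against 253 and 220 CPM in sedentary replicates 1 and 2, the same direction as in neutrophils, and the interaction was 1.07 on the log2 scale. For Syf2 the other barcodes were between 111 and 114 CPM in all 4 libraries, and the interaction was -2.32.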

How the data were processed

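The authors deposited raw UMI counts, whole numbers per barcode over 27998 genes, for each of 4 libraries. The submitters' processing notes name Cell Ranger, without a version, and Seurat 3.1 on mm10 (GRCm38). The series text names a pre-mRNA genome, so intronic reads may be counted; it also names FACS, where the labels' protocols name CD45 beads. The use of strand and the calling of barcodes are not given in the sources used here. Kept barcodes had 9946112 and 14784027 UMIs in exercise replicates 1 and 2, and 10451748 and 11665166 in sedentary replicates 1 and 2.

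Neutrophils were found by the stated limits. Kupffer cells, classical monocytes and B cells were found by marker genes for comparison (6665, 180 and 1975 barcodes). Comparisons of neutrophils with other cells are descriptions, since the cells were chosen by their transcripts. The members, the 28 gene lists and the named-gene rule were chosen with earlier results of these data known. That rule took the selection genes, up to 4 members of each list by level, and the 20 highest genes by ratio. It also took the 20 highest genes by level, with mt-, Rpl and Rps genes left out. Up to 5 genes per direction were added by p with separated groups. Other genes in the text come from the lists or were chosen after their values were seen. Some genes that the rule or the lists name are not reported here. Counts summed per library were tested with edgeR 4.0.16 (R 4.3.3; filterByExpr, TMM scaling, quasi-likelihood F-test, Benjamini-Hochberg adjustment at 0.05), with DESeq2 1.42.0 as an alternative, after a check on simulated data. Doublets were scored against simulated pairs at 0.8% per 1000 barcodes and not removed. Shares used an exact permutation test over libraries and exact (Clopper-Pearson) binomial 95% intervals; a count of 0 was given a limit of 3 counts. Per-cell shares across cell types were taken after thinning to 900 UMIs (scikit-learn 1.9.0, pandas 2.3.3, scipy 1.17.1 and numpy 2.4.6 in Python 3.11.15). Coordinates are from GENCODE on GRCm38, by Ensembl identifier (312 of 312 genes).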

Additional observations from a re-analysis of the deposited data

How the results depend on the processing

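Of 291 values under alternatives, 274 kept their direction and side of the threshold. Shares and list medians were judged by direction alone, so shares whose groups overlapped count as kept. Many of the values are of genes picked by p with groups apart in these same data, so 274 is no measure of robustness. Alternatives in which a gene was filtered out are not counted. Of the 17 alternatives for the share 5, and of those for the genes 3, were chosen after seeing the data. Exercise shares lay below sedentary shares without overlap in 15 of the 17 alternatives for the share. Those with 1 library left out are among the 15, and they could not overlap, since the groups were apart with every library in. The groups overlapped with barcodes of at least 1126 UMIs and with at least 1000 UMIs and 500 genes. With 1 library left out the log2 ratio of the share ranged from -2.39 to -0.93. Genes called numbered 1 with DESeq2 (Saa3) and 1 with at least 1000 UMIs and 500 genes (Cxcl10), and 0 to 7 with 1 library left out. Without sedentary replicate 1 the call was Saa3, and without sedentary replicate 2 the 7 were Gbp2, Isg15, Cxcl10, Saa3, Irg1, Rsad2 and Ifit1, all higher in exercise. The interaction called 0 to 4 genes with 1 library left out (Ccl3, Ccl4, Rsad2 and Retnlg without exercise replicate 2). An arm with 1 library was assumed to vary like the other group.

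List medians also changed sign. The cytokine median was -0.26 with DESeq2, -0.032 in neutrophils without Kupffer cell UMIs, -0.43 without the filter on low counts, -0.031 with the replicate block and -0.72 without exercise replicate 1 (-0.72 to 1.28 over the 4 left-out libraries). The same range was -0.0089 to 0.43 for granule genes, -0.39 to 0.13 for immediate early genes and -1.38 to 0.15 for mitochondrial transcripts. The granule median was -0.14 with DESeq2 and -0.29 without the filter. The cause was not tested.

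The labels do not say that replicate numbers pair the libraries. Deviations of same-numbered libraries correlated at r = -0.24 over 649 genes, which does not exclude a pairing, and serum alanine aminotransferase was 26 and 33 U/L for number 1 and 59 and 56 U/L for number 2. With the replicate block 0 genes were called (8 at an unadjusted p of 0.05). Crossed numbers gave 0 calls (22 unadjusted). The interaction had the library, not the replicate number, as its block, and without that block it called 0.

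Exercise replicate 1 had 6 neutrophils and 8748 UMIs.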

Other observations

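Among the genes with the smallest p, Rsrp1 (chr4:134923592-134927671) and Syf2 (chr4:134930898-134937548) are neighbours on the plus strand of GRCm38, and in neutrophils their ratios had opposite signs. Rsrp1 had 9 and 18 UMIs in exercise replicates 1 and 2, against 9 and 8 in sedentary replicates 1 and 2. Syf2 had 1 and 2 UMIs in exercise replicates 1 and 2, against 15 and 22 in sedentary replicates 1 and 2. In B cells Syf2 was level, at 176 and 187 CPM in exercise replicates 1 and 2, against 178 and 178 CPM in sedentary replicates 1 and 2. Both were noticed after their values were seen, and neither passed the adjusted test.

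H2-Q10, a class I MHC gene best known from liver, was read in 66 of the 115 neutrophils at 654 ± 121 CPM (SD, n = 4), against 7.55 CPM in the other barcodes. It belongs to a family of near-identical genes, so its count is uncertain.

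Slc7a11, the cystine transporter, had 343 and 703 CPM in neutrophils of exercise replicates 1 and 2, against 807 and 806 CPM in those of sedentary replicates 1 and 2. It was at 1.67 CPM in Kupffer cells.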
